A study of Homo sapiens with 16 samples.

Results

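Huh7 is a human hepatocellular carcinoma (HCC) line that secretes many liver proteins, and Sorafenib is an inhibitor of RAF and several receptor tyrosine kinases that is given to patients with HCC. Huh7-IR cells were raised in increasing concentrations of Sorafenib until they grew in the drug, and the comparison asked which transcripts differed between them and the parental line from which they came. It rests on 4 of the 16 libraries of the series, 2 of Huh7-IR and 2 of Huh7 parental cells, and on 15019 of 26258 genes, those with at least 1 CPM (the read count of a gene divided by the library total and scaled to a common sum) in at least 2 of the 16 libraries. The labels give 7 μM Sorafenib for Huh7-IR cells, to maintain resistance, and no treatment for parental cells, so exposure to the drug and resistance to it cannot be told apart. Both groups grew in the same serum-supplemented medium, and neither source used here says whether Huh7-IR is 1 clone or a pool. The other libraries were from Huh7 cells kept in a constantly high concentration (Huh7-CR, also with 7 μM Sorafenib), Huh7 cells labelled DMSO (untreated per the labels, and not otherwise described), and the same 4 groups of Hep3B, a second HCC line. The study's methods speak of RNA from biological triplicates. The labels name 2 libraries a group and do not say whether they came from separate cultures. The p-values therefore measure only the spread between libraries, which was pooled over all 16.

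Hepatocytes make most of the proteins of blood plasma, assemble lipoproteins and detoxify drugs, and a network of transcription factors with HNF4A, the FOXA factors and C/EBPα keeps those genes on. HCC cells that lose part of this network often express cytoskeletal, matrix and adhesion genes of mesenchymal cells in its place. Sorafenib blocks RAF in the RAF-MEK-ERK cascade, which carries growth signals from receptor tyrosine kinases to the cell cycle.

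Huh7-IR libraries held 60321745 and 46613302 reads and parental libraries 68722229 and 74663662, as recovered from the CPM values, so 3 reads, the most that a count of 0 allows, came to between 0.0402 and 0.0644 CPM, for counting error only. Both Huh7-IR libraries carried the RNA of the labelled line. Of 29 genes with at least 10 CPM in all 4 Huh7 parental and DMSO libraries and at most 0.1 CPM in every Hep3B library, 26 kept at least 1 CPM in both Huh7-IR libraries, and of 3 genes with the reverse pattern none reached it in either. The 2 Huh7-IR libraries stood further apart than most pairs, with an SD of 0.566 for the difference in log2(CPM + 1) between replicates across genes, against 0.289 between the parental libraries, and the results below say where this mattered.

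Changes were tested on log2(CPM + 1) with limma, and a gene was called where the Benjamini-Hochberg adjusted p was below 0.05 and the absolute log2 fold change at least 0.58. By this rule 7336 genes were called, 48.8% of those tested, with 4666 (31.1%) higher and 2670 (17.8%) lower in Huh7-IR. In 7329 of them (48.8%), 4660 higher (31.0%) and 2669 lower (17.8%), both Huh7-IR libraries also lay beyond both parental ones. This separation alone was met by 77.1% of all genes. The spread of each gene was pooled over all 16 libraries, so it is not that of the Huh7-IR and parental pairs alone. With the 4 libraries fitted alone 5893 genes were called, 3678 higher and 2215 lower. A log2 fold change of at least 2 together with the call and the separation was reached by 877 higher genes (5.84%) and 492 lower genes (3.28%), and 824 and 469 of these were called in the same direction under each of 20 other fits. These fits included those that only left out a Huh7-CR library, and did not include the DMSO libraries as reference. In bulk RNA, fewer cells expressing a gene and less of its RNA per cell cannot be told apart.

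The excess of rises over falls depended on the scaling. Taken over every gene tested, the median change was 0.19 on the log2 CPM scale and 0.04 with TMM factors, and the share of rises among the called genes was 63.6% on CPM, 52.8% with TMM factors, 54.0% with edgeR, 53.3% with DESeq2, 49.8% after quantile normalization and 49.7% after a correction for GC content. With TMM factors 3840 of the 4666 rises and all 2670 falls were called again, and 0 genes were called in the opposite direction.

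The largest rises included an integrin chain, a scaffold protein, a receptor tyrosine kinase and a basement membrane collagen. ITGA3 (chr17:48133332-48167845 in GRCh37), the integrin α3 chain of laminin receptors, was at 1.21 and 0.616 CPM in parental and 702 and 611 CPM in Huh7-IR cells. It rose 720-fold in mean CPM, with a log2 fold change of 8.44 (SE 0.32, limma adjusted p = 4.3e-09). AHNAK2, a giant scaffold protein, had 8 and 2 reads in the parental libraries and 25728 and 11718 reads in those of Huh7-IR. AXL, the receptor tyrosine kinase bound by GAS6, went from 4 and 2 reads to 12886 and 8858 reads. Both genes were thus near the floor in parental cells and abundant in each Huh7-IR library, and their log2 fold changes of 8.26 (SE 0.49) and 7.60 (SE 0.37) are set in part by the pseudocount of 1 CPM. For such genes the count models gave larger values, 11.98 for AXL with edgeR.

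The promoters are shown for the first 3 rises and the first 3 falls by size that have an entry in the RefSeq promoter table (assembly GRCh38.p14), which held none for ITGA3 and APOB. Each window runs 5′ to 3′ from 250 bases before to 50 bases after the transcript start of that table. For AFP, COL4A2, AMBP and MTTP this start lies inside the GENCODE gene span. Every window was found exactly once on its chromosome in GRCh37, the build of the files, whose coordinates are given. Capitals mark matches, on either strand, to TGANTCA (AP-1), GGAATG (TEAD), TTAATNATT (HNF1), AAAGTCCA (HNF4), TGTTTNC (FOXA), TTGCNNAA (C/EBP) or ACGTG (HIF), where N is any base.
AHNAK2 (chr14:105444662-105444961, minus strand): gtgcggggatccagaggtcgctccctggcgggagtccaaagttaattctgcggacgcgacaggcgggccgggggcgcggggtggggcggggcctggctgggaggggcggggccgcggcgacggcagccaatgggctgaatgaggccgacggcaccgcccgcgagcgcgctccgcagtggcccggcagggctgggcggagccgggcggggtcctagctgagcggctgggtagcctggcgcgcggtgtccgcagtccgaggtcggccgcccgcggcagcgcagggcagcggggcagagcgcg
AXL (chr19:41724878-41725177, plus strand): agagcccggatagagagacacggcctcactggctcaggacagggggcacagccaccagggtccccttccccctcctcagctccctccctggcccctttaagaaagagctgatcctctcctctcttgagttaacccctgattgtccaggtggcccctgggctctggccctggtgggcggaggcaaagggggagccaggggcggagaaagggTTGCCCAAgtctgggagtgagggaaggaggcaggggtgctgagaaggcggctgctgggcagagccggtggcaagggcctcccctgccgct
COL4A2 (chr13:110959381-110959680, plus strand): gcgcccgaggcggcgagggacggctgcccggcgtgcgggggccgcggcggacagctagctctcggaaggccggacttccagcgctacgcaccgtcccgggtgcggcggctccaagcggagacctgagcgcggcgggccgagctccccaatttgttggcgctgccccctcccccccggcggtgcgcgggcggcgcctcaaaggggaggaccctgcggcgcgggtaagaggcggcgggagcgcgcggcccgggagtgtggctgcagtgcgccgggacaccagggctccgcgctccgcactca
AFP (chr4:74301688-74301987, plus strand): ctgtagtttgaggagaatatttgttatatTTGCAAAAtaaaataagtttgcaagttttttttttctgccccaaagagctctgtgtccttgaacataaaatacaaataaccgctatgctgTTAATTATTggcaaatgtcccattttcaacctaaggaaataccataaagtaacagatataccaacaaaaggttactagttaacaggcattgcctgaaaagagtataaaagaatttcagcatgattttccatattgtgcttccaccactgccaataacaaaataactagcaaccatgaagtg
AMBP (chr9:116840531-116840830, minus strand): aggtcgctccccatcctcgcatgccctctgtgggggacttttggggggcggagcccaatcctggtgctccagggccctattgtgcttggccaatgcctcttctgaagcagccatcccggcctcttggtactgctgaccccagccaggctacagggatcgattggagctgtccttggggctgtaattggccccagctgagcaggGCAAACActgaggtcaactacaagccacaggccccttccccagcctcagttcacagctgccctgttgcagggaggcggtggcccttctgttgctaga
MTTP (chr4:100485037-100485336, plus strand): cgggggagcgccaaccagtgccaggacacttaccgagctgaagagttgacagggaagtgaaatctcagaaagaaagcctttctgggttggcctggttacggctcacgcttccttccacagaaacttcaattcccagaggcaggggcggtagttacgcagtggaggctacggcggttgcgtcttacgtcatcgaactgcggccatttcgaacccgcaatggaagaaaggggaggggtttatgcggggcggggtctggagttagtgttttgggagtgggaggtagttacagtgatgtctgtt
The AFP window held an HNF1 and a C/EBP match, the AMBP window a FOXA match, the AXL window a C/EBP match, and those of AHNAK2, COL4A2 and MTTP held none of the 7 motifs. Over all 27305 promoters of the table, the HNF1 motif occurred in 1.31%, the HNF4 motif in 1.13%, the C/EBP motif in 10.6%, the FOXA motif in 18.1%, the AP-1 motif in 7.76%, the TEAD motif in 14.0% and the HIF motif in 21.6%. Of the 11742 tested genes with a promoter in the table, 0.758% held the HNF1 motif, against 8 of 367 (2.18%) of the genes that fell by at least 2 on the log2 scale and 11 of 678 (1.62%) of those that rose as much. The HNF4 motif was in 0.801% of tested promoters, 1.91% of the falling and 1.03% of the rising ones, and the AP-1 motif in 4.57%, 6.27% and 7.52%. The HIF motif was in 26.2%, 19.6% and 22.7%, while the mean GC content of the same windows was 63.8%, 59.4% and 64.6%. These shares are descriptions of short windows, and the part of base composition in them was not tested.

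**Figure D1:**
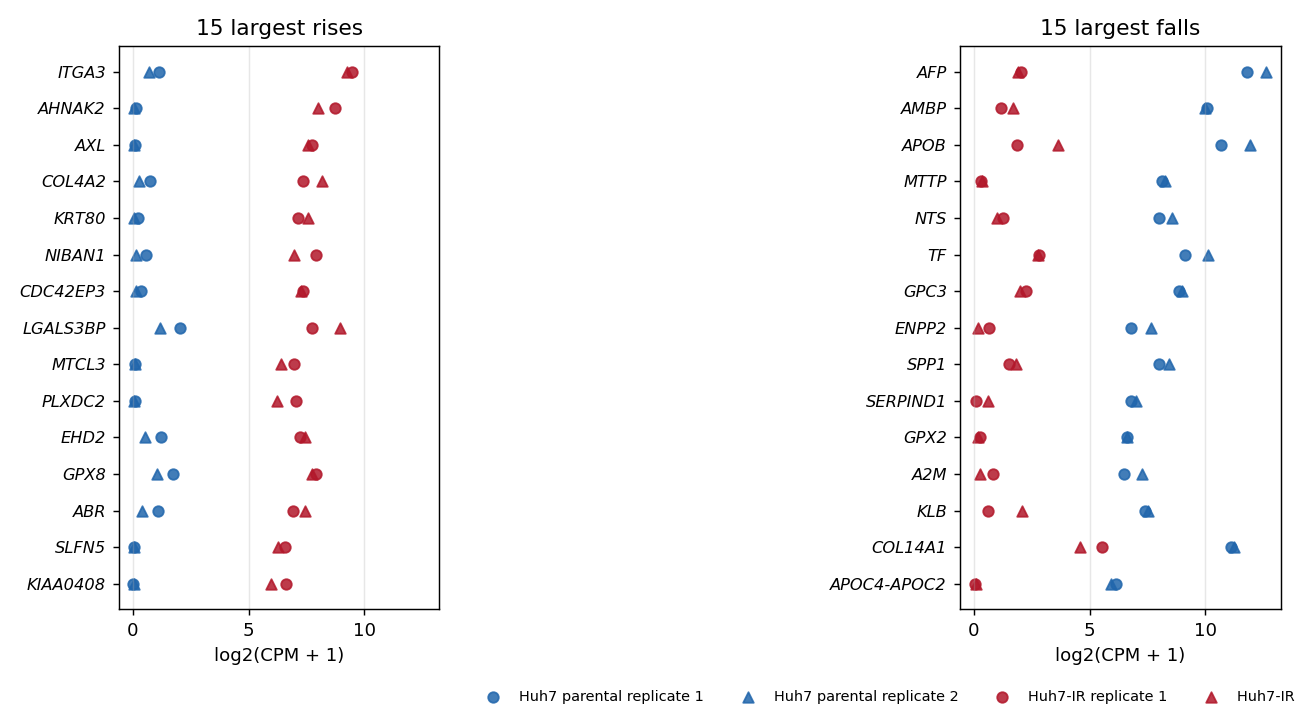
The 15 largest rises (left) and 15 largest falls (right) among genes called and separated in every library, one point per library, as log2(CPM + 1) on the x axis (blue: Huh7 parental, red: Huh7-IR, circle: replicate 1, triangle: replicate 2). In no row do the blue and red points overlap, and KLB and APOB show the widest gaps between Huh7-IR replicates among the falls.

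The other large rises were COL4A2 (0.698 and 0.201 CPM in parental, 163 and 292 CPM in Huh7-IR), a chain of basement membrane collagen, and KRT80 (0.189 and 0.0268 CPM, then 142 and 187 CPM), an epithelial keratin. NIBAN1, a stress-responsive protein, rose from 0.495 and 0.121 CPM to 241 and 126 CPM, and CDC42EP3, an effector of the GTPase CDC42 that organizes septins and actin, from 0.276 and 0.0938 CPM to 163 and 154 CPM. LGALS3BP, a secreted binding partner of galectin-3, was at 3.17 and 1.23 CPM in parental and at 215 and 497 CPM in Huh7-IR cells. These genes were low in both parental libraries and high in both Huh7-IR libraries, with log2 fold changes between 6.75 and 7.26. PLXDC2, EHD2, which coats caveolae, GPX8, a peroxidase of the endoplasmic reticulum, ABR, a regulator of small GTPases, and SLFN5 completed the list with log2 fold changes between 6.36 and 6.55. MTCL3 and KIAA0408, with 6.58 and 6.25, are neighbours on chromosome 6 joined by an annotated readthrough transcript, so their reads may be shared.

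The largest falls included several secreted liver proteins. AFP (chr4:74296855-74321891 in GRCh37), the fetal albumin relative that serves as the serum marker of HCC, was at 3549 and 6269 CPM in parental and at 3.12 and 2.79 CPM in Huh7-IR cells. Its mean was 1663-fold higher in parental cells, and its log2 fold change was -10.22 (SE 0.54, limma adjusted p = 5.0e-08). AMBP, the precursor of α1-microglobulin and bikunin, was at 1080 and 1006 CPM in parental and at 1.24 and 2.21 CPM in Huh7-IR cells, a log2 fold change of -8.60 (SE 0.31). Both were abundant in each parental library and near 1 to 3 CPM in both Huh7-IR libraries.

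The lipoprotein genes fell with them. APOB, the structural protein of VLDL and LDL, was at 1631 and 3853 CPM in parental and at 2.65 and 11.5 CPM in Huh7-IR cells, with a log2 fold change of -8.54 (SE 0.87). MTTP, the transfer protein that loads lipid onto APOB, was at 277 and 307 CPM in parental and at 0.249 and 0.279 CPM in Huh7-IR cells, and its mean was 1105-fold higher in the parental line. Both transcripts were thus low in each Huh7-IR library, APOB with a gap between the replicates and MTTP without. The readthrough gene APOC4-APOC2 shares its reads with APOC2, so that their values were nearly the same, 69.7 and 60.7 CPM in parental and 0.0332 and 0.0644 CPM (2 and 3 reads) in Huh7-IR cells for the readthrough.

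Other large falls were NTS, the neuropeptide neurotensin (254 and 381 CPM, then 1.38 and 0.987 CPM), GPC3, a heparan sulfate proteoglycan used as an HCC marker (460 and 513 CPM, then 3.73 and 3.05 CPM), and SPP1, the matrix protein osteopontin (258 and 343 CPM, then 1.91 and 2.6 CPM). TF, the iron carrier transferrin, went from 556 and 1110 CPM to 6.13 and 5.81 CPM, and ENPP2, the enzyme autotaxin, from 110 and 199 CPM to 0.564 and 0.15 CPM. In each of these 5 genes the replicates of a group differed far less than the groups. SERPIND1 (heparin cofactor II), the glutathione peroxidase GPX2, A2M (α2-macroglobulin) and KLB, the co-receptor of FGF19 and FGF21, fell by between 6.10 and 6.53 on the log2 scale. COL14A1, a collagen bound to fibrils, fell from 2188 and 2398 CPM to 45.3 and 23.3 CPM. Leaving out any one of the 4 libraries left the log2 fold changes of all 15 rises between 5.93 and 8.67 and of all 15 falls between -10.63 and -5.37.

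Some genes passed from the floor to expression or the reverse. Over all 26258 genes, 13227 and 13206 had at least 1 CPM in the Huh7-CR libraries, and 12974 and 13563 in the Huh7 DMSO libraries. At or under 3 reads in both parental libraries and at least 1 CPM in both Huh7-IR libraries were 83 genes, of which 51 also had at least 1 CPM in both Huh7-CR libraries and 0 in both Huh7 DMSO libraries. The highest of them in Huh7-IR cells were SLFN5, a Schlafen family member (94.2 and 76.1 CPM), LBH, a transcriptional cofactor (86.2 and 50.8 CPM), NAV1, a microtubule-binding neuron navigator (65.5 and 61.9 CPM), ITGA4, the α4 integrin chain (37.4 and 34.9 CPM), and the protease ADAMTS15 (20.5 and 41.6 CPM). In the parental libraries these 5 genes had between 0 and 3 reads each. GREM1, a secreted BMP antagonist, had 0 reads in both parental libraries and 39.7 and 21.3 CPM in Huh7-IR, at least 1458-fold higher when the parental mean is set to 3 reads over both libraries (GREM1 was picked after its values were seen, as the largest such bound).

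The reverse pattern, at least 1 CPM in both parental libraries and at most 3 reads in both Huh7-IR libraries, was met by 69 genes. Of these, 64 had at least 1 CPM in both DMSO libraries and 35 were at or under 3 reads in both Huh7-CR libraries as well. The share of all genes at or under 3 reads in Huh7-CR was not counted. Beside APOC2 and its readthrough, the highest in parental cells were CTXND1 (39.2 and 56.0 CPM, then 1 read in each Huh7-IR library), SLC30A10, a manganese exporter (25.7 and 39.9 CPM, then 2 reads in each), and SLC6A19, a carrier of neutral amino acids (34.6 and 25 CPM, then 1 read in each). TFR2, the liver's transferrin receptor 2 in iron sensing, had 2.62 and 1.25 CPM in parental and 0 reads in both Huh7-IR libraries.

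In absolute CPM, the cells gained most in VIM, MALAT1 and FN1. VIM, the mesenchymal intermediate filament vimentin, was at 1261 and 1120 CPM in parental and at 3639 and 2646 CPM in Huh7-IR cells (log2 fold change 1.38, SE 0.25). FN1, which codes for fibronectin, had 4036 and 3694 CPM in parental and 3835 and 7038 CPM in Huh7-IR cells and was not called (0.43), and the groups overlap, although it was called without Huh7-IR replicate 1 (0.87). MALAT1, a nuclear non-coding RNA, was called with a log2 fold change of 1.36 (SE 0.43), but not without Huh7-IR replicate 1 (1.13) or without either parental library (between 1.28 and 1.44), nor against the DMSO libraries (0.94). The elongation factor EEF2 (1.09) and the lysosomal PSAP (1.44) were called too, EEF2 not against the DMSO libraries (0.65). The largest losses in CPM were AFP, VGLL3, ALB, APOB, ALDH1A1 and COL14A1. ALB, serum albumin, was at 3710 and 3629 CPM in parental and at 60.6 and 261 CPM in Huh7-IR cells, with a log2 fold change of -4.85 (SE 0.61). VGLL3, a cofactor of TEAD factors, went from 4884 and 5695 CPM to 926 and 2047 CPM. ALDH1A1, a retinaldehyde dehydrogenase, fell from 2967 and 3284 CPM to 207 and 1056 CPM, a log2 fold change of -2.74, and of -1.56 without Huh7-IR replicate 1, and lost its call with the 4 libraries fitted alone.

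To read the changes by function, 31 lists of genes written from general knowledge were counted against the shares of all genes, 31.1% higher and 17.8% lower. Among liver transcription factors 13 of 22 tested members fell and 4 rose, with a median log2 fold change of -1.09, and the rises were 2 under each other scaling run, against the DMSO libraries or without parental replicate 2. CEBPA, which codes for C/EBPα, went from 109 and 149 CPM to 3.5 and 7.08 CPM, and NR5A2, a nuclear receptor of bile acid and developmental genes, from 161 and 163 CPM to 3.66 and 11.8 CPM. HNF4A was at 232 and 203 CPM in parental and at 23.7 and 63.8 CPM in Huh7-IR cells (-2.45, SE 0.34), and the homeobox factor PROX1 fell by 3.25. CEBPB rose by 2.30 and PPARA by 2.29, and PPARA lost its call with the DMSO libraries as reference (0.45).

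Genes of hepatocyte secretion fell together. Of 26 plasma protein genes 20 fell and 0 rose (median -3.64), of 17 genes of apolipoproteins and lipoprotein assembly 13 fell and 2 rose (median -3.37), and of 29 genes of coagulation and complement 17 fell and 3 rose (median -1.48). Together the 3 lists took 1.68% and 2.25% of all reads in parental and 0.0677% and 0.221% in Huh7-IR libraries. SERPINA1 (α1-antitrypsin) was at 268 and 400 CPM in parental and at 9.48 and 48.1 CPM in Huh7-IR cells, and APOA1, the main protein of HDL, at 38.7 and 36.9 CPM and then at 0.133 and 0.257 CPM. TTR (transthyretin) had 14.7 and 25.6 CPM against 2.52 and 15.2 CPM and was not called (-1.43, limma adjusted p = 0.082). It was called against the DMSO libraries (-3.80), without Huh7-IR replicate 2 (-2.54), after quantile normalization (-1.76) and with a replicate block, with or without a GC correction, and had a log2 fold change of -0.33 without Huh7-IR replicate 1. The falls in the clotting list were led by SERPIND1, CPB2 (-4.87) and coagulation factor V, F5 (-4.56). Those that rose were the complement genes C4A, C4B and CFB and, in the apolipoprotein list, APOL1 (3.25) and LCAT (1.29). C4B went from 1.7 and 1.08 CPM to 55.3 and 248 CPM and C4A from 0.815 and 0.71 CPM to 30.8 and 141 CPM, but these are near-identical copies whose reads cannot be divided with certainty. CFB lost its call with the DMSO libraries as reference (0.71).

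Liver metabolism showed falls and rises. Of 28 drug metabolism enzymes 11 fell and 2 rose, of 17 genes of bile acid and drug transport 6 fell and 4 rose (2 against the DMSO libraries), and of 19 genes of the urea cycle and amino acid catabolism 5 fell (between 9 and 11 under the other scalings run) and 2 rose. The rises among drug metabolism enzymes hung on single libraries, with 6 without Huh7-IR replicate 1 and 0 without parental replicate 2. SULT2A1, a sulfotransferase of steroids and bile acids, had 26.2 and 32.7 CPM in parental libraries and 0 and 2 reads (0 and 0.0429 CPM) in those of Huh7-IR. CYP1A1 fell from 35.5 and 18.1 CPM to 0.398 and 1.01 CPM, the organic anion transporter SLC22A9 from 58.9 and 73.0 CPM to 0.0497 and 0.236 CPM, and the drug efflux pump ABCB1 from 135 and 117 CPM to 20 and 29.1 CPM. ABCC3, an efflux pump of the basolateral membrane, rose from 24.9 and 18.2 CPM to 106 and 243 CPM. CYP3A4 was below the filter in parental and Huh7-IR cells, and CPS1, the first enzyme of the urea cycle, was at 1.16 and 1.51 CPM in parental and 1.59 and 1.14 CPM in Huh7-IR cells and not called. HGD of tyrosine breakdown fell by 4.33, while ASS1, which makes argininosuccinate, rose by 2.47. In gluconeogenesis and glycogen metabolism 2 of 8 genes fell and 1 rose, the mitochondrial PCK2 (from 19.5 and 12.7 CPM to 98.5 and 119 CPM).

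Of 23 genes of cholesterol synthesis and uptake 12 fell (22 with the DMSO libraries as reference) and 0 rose (median -1.01), with HMGCS1 (614 and 1863 CPM in parental, 222 and 163 CPM in Huh7-IR) and with a fall of DHCR7 (-1.77), which catalyses the last step. The parental replicates were far apart here and the count moved with them, to 8 falls without parental replicate 2 or without Huh7-IR replicate 2. Of 15 genes of fatty acid synthesis 4 fell (7 against DMSO) and 1 rose, with GPAM, the acyltransferase that starts triglyceride synthesis, at 7.01 and 26.7 CPM and then 0.398 and 0.365 CPM, and with a rise of the elongase ELOVL5 (1.52). Of 23 genes of fatty acid oxidation and ketogenesis 9 fell (14 with DESeq2) and 2 rose, with falls of ACOX2 (-1.95) and CPT2 (-1.50).

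Of 25 genes of glucose uptake and glycolysis 10 rose and 3 fell (median 0.39). HK1, a hexokinase that the adult liver hardly uses, was at 2.82 and 1.15 CPM in parental and at 128 and 120 CPM in Huh7-IR cells, and HKDC1, a related hexokinase, at 4.8 and 2.08 CPM and then at 111 and 122 CPM. The enolase ENO2, for which the call was lost without Huh7-IR replicate 1 or parental replicate 2, with the Huh7 libraries alone and against the DMSO libraries (1.54 against 3.90), had 2.62 and 0.964 CPM and then 67.9 and 22.1 CPM. The 3 that fell were abundant enzymes, PKM (2051 and 1822 CPM, then 591 and 1050 CPM), LDHA (1738 and 1885 CPM, then 785 and 887 CPM) and TPI1 (-1.22). Summed over the list the share of reads was lower in Huh7-IR, 0.585% and 0.827% against 1.07% and 0.971%. Against the DMSO libraries 5 rose and 7 fell, and without Huh7-IR replicate 2 the count was 9 and 7, and after GC correction 7 fell.

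In the list of hypoxia-induced genes 12 of 30 rose and 3 fell (median 1.13). STC2, a secreted glycoprotein induced by hypoxia and by amino acid stress, rose from 4.16 and 5.87 CPM to 244 and 261 CPM, and DDIT4, an inhibitor of mTORC1, from 2.62 and 3.07 CPM to 75.6 and 103 CPM. The prolyl hydroxylase EGLN1, which marks HIF-1α for degradation, fell from 432 and 367 CPM to 64.3 and 47.2 CPM, and RORA fell by 2.71. With the DMSO libraries in place of the parental ones 7 genes of the list were higher and 6 lower.

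Cell cycle genes fell together. Of 41 genes of DNA replication and mitosis 38 fell and 0 rose, with a median of -1.76, and the 3 that were not called (CDT1, TK1 and TYMS, named after their values were seen) had log2 fold changes between -0.87 and -0.35. CCNB1, the cyclin of mitotic entry, was at 466 and 449 CPM in parental and at 44.4 and 53.9 CPM in Huh7-IR cells, with a log2 fold change of -3.20 (SE 0.21). RRM2, a subunit of ribonucleotide reductase, had 162 and 181 CPM and then 6.55 and 57.0 CPM, and MKI67, the proliferation antigen Ki-67, 387 and 529 CPM and then 50.1 and 180 CPM. Both were lower in each Huh7-IR library than in either parental one, yet the log2 fold change of RRM2 was -1.57 without Huh7-IR replicate 1 against -3.04 with it, and that of MKI67 -1.32 against -2.24. With the 4 libraries fitted alone the call of RRM2 was lost. The count was between 34 and 41 falls without any one of the 4 libraries. Beside it, 11 of 25 CDK inhibitors and genes of arrest and apoptosis rose and 4 fell. CDKN1A, the CDK inhibitor p21, went from 2.44 and 1.03 CPM to 45.7 and 43.6 CPM (4.11, SE 0.68, and 2.17 against the DMSO libraries, which had 2.63 and 27.1 CPM), BBC3, the proapoptotic protein PUMA, rose by 2.76, and BTG2, an antiproliferative protein, fell by 1.34. Without Huh7-IR replicate 2 the falls in this list were 2, and after GC correction the rises were 7. PHLDA3, an AKT repressor, had 0 reads in both parental and 6.95 and 1.74 CPM in Huh7-IR libraries.

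Of 29 mesenchymal genes and EMT regulators 17 rose and 1 fell (median 1.38). Beside AXL the largest rises were SPARC, a matricellular protein (12 and 8.16 CPM, then 561 and 562 CPM), and galectin-1, LGALS1 (4.77 and 1.22 CPM, then 124 and 180 CPM), with log2 fold changes of 5.69 and 5.39. CDH2 (N-cadherin) rose from 208 and 162 CPM to 396 and 450 CPM, while CDH1 (E-cadherin) had 33.6 and 28.0 CPM against 21.8 and 39.0 CPM and was not called, except against the DMSO libraries, where it was lower (-2.22). The epithelial list moved the other way in part, with 13 of 33 lower and 6 higher. CLDN6, a claudin of fetal epithelia, fell from 90.8 and 75.2 CPM to 1.97 and 2.06 CPM and CGN (cingulin) fell by 2.96, while KRT80, KRT7 (3.68) and CLDN2 rose. CLDN2 was at 1.15 and 0.429 CPM in parental and at 6.73 and 109 CPM in Huh7-IR cells, and its log2 fold change was 4.06, and 2.14 without Huh7-IR replicate 2, and the call was lost with the 4 libraries fitted alone.

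Of 43 integrins, collagens and laminins 24 rose and 6 fell (median 0.99). After ITGA3 and COL4A2, LAMA3, the laminin α3 chain, rose from 1.09 and 0.763 CPM to 68.0 and 131 CPM, whereas the basement membrane linkers NID1 (-2.69) and NID2 (-3.73) and the leukocyte integrin chain ITGAL (-2.98) fell. Of 25 genes of the plasminogen system, metalloproteases and their inhibitors 14 rose and 5 fell, with TIMP2 from 30.7 and 12.3 CPM to 652 and 601 CPM and tissue plasminogen activator, PLAT, from 0.102 and 0.0134 CPM to 74.5 and 10.6 CPM. Of 30 YAP and TEAD factors and targets 15 rose, among them MYOF (2.58) and RBMS3 (2.39), and 5 fell, among them IGFBP3 (-2.20) and VGLL3 (-1.94). Of 32 TGF-β ligands, receptors and targets 12 rose (37.5%) and 7 fell (21.9%), near the shares of all genes, 31.1% and 17.8%. With TMM factors 10 rose and 9 fell. The latent TGF-β binding proteins LTBP2 (3.41) and LTBP1 (2.38) led the rises and BMP2 (-1.67) the falls. Without Huh7-IR replicate 1 the falls were 3 in the plasminogen list and 4 in the TGF-β list.

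**Figure D2:**
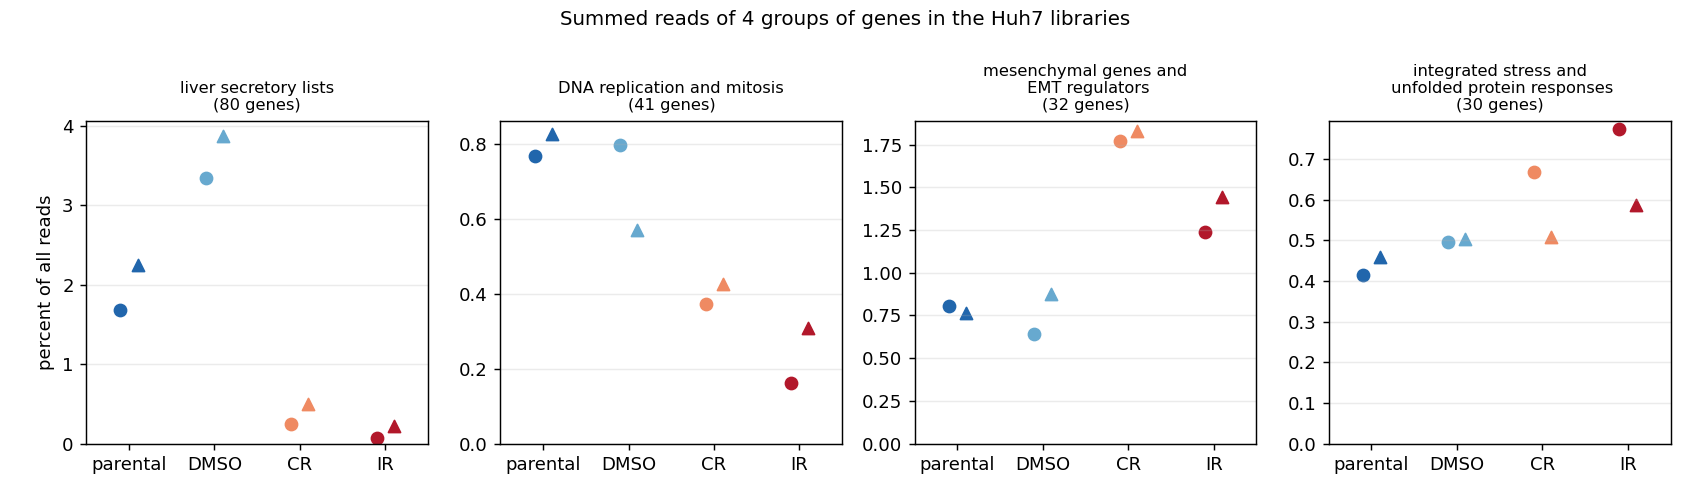
Share of all reads, in percent on the y axis, taken by 4 groups of genes in each Huh7 library (circle: replicate 1, triangle: replicate 2, each panel starting at 0). The liver secretory lists are at 1.68% and 2.25% in parental and 0.0677% and 0.221% in Huh7-IR libraries, and in the replication panel Huh7-IR replicate 2 (0.309%) lies nearer to the other groups than replicate 1 (0.163%).

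Among receptor tyrosine kinases and their ligands 16 of 43 rose (37.2%) and 10 fell (23.3%), near the shares of all genes, 31.1% and 17.8%. With TMM factors 13 rose and 11 fell. The rises were led by AXL, ROR1, a receptor of WNT5A (0.378 and 0.375 CPM, then 39.4 and 53.7 CPM), and the collagen receptor DDR1 (5.81 and 4.43 CPM, then 68.7 and 120 CPM). The falls were led by KLB, PDGFRA (107 and 189 CPM, then 1.81 and 2.79 CPM) and FGFR3 (80.2 and 69.7 CPM, then 4.04 and 10.2 CPM). Of 26 genes of ERK output and feedback, the arm below RAF, 9 rose (34.6%) and 6 fell (23.1%), also near the shares of all genes. LIF (3.64), the feedback inhibitor SPRY2 (2.17) and the AP-1 subunit FOSL1 (2.12) rose, while the ERK phosphatase DUSP4 (-2.16), SPRY1 (-1.79) and the ETS factor ETV4 (-1.53) fell. Of 21 Wnt and β-catenin targets 6 rose (28.6%) and 5 fell (23.8%), again near the shares of all genes. DKK3 rose from 22.2 and 17.1 CPM to 473 and 393 CPM. GPC3 fell, as did DKK1, from 170 and 106 CPM to 13.4 and 13.9 CPM. After GC correction the counts of this list were 4 and 8.

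Stress and interferon genes were mostly higher. In the list of the integrated stress and unfolded protein responses 18 of 29 rose and 4 fell (median 0.96). The rises were led by targets of ATF4, CHAC1, which degrades glutathione (2.42 and 2.8 CPM, then 35.7 and 44.9 CPM), NUPR1 (3.29) and DDIT3, the factor CHOP (7.78 and 11.1 CPM, then 86.4 and 42.9 CPM). The falls were led by the chaperones CRELD2 (-1.50), PDIA4 (-1.31) and SDF2L1 (-1.03). Of 34 interferon response and HLA class I genes 22 rose and 0 fell (median 1.34), with IFIT2, an antiviral protein, from 0.902 and 0.589 CPM to 61.4 and 22.5 CPM, IFIT3 (3.65) and HLA-E, a gene with close paralogs (6.01 and 3.71 CPM, then 74.4 and 54.8 CPM). This count was between 17, without parental replicate 2, and 24, and 2 members fell after GC correction or against the DMSO libraries. Of 27 NRF2 targets 3 rose (6 without Huh7-IR replicate 2) and 8 fell. The cystine carrier SLC7A11 rose by 2.16, while GPX2, NQO1 (239 and 320 CPM, then 40.2 and 25.9 CPM) and PRDX1 (1378 and 1499 CPM, then 278 and 331 CPM) fell.

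Of 32 chemokines, cytokines and receptors 16 fell and 9 rose. CCL20 went from 143 and 151 CPM to 2.3 and 3.75 CPM, IL17RB fell by 4.03 and CXCL16 by 4.03, and LIF and the macrophage growth factor CSF1 (2.94) rose. Of 17 genes of iron handling 6 fell (11 with edgeR or DESeq2, 10 after quantile normalization or GC correction), led by TF, TFR2 and IREB2 (-1.49), and 2 rose, BMP6 (1.66) and STEAP3 (1.08). The call of TFR2 was lost without parental replicate 1, with the Huh7 libraries alone and with a pseudocount of 4 CPM. Of 15 metallothioneins and zinc transporters 3 rose and 4 fell, and 8 rose with the DMSO libraries as reference. Only 2 of the 3 rises were also separated in every library. The rises were 6 without Huh7-IR replicate 2 or parental replicate 1, and 2 without either of the others or with TMM factors, and the falls 2 without parental replicate 2. MT1E, one of a family of close paralogs, had 17.0 and 2.92 CPM in parental and 83.3 and 31.7 CPM in Huh7-IR cells, and MT2A 27.5 and 4.38 CPM and then 65.3 and 46.7 CPM. Their calls were lost with the 4 libraries fitted alone.

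Markers of cells other than hepatocytes were counted beside these lists. Of 14 such markers 8 were tested, of which COL1A1, COL1A2, COL3A1 and CD68 rose and LUM, PECAM1, PTPRC and CD14 fell. The call of CD14 was lost under 6 alternatives, among them without Huh7-IR replicate 1 (-0.87), without parental replicate 2 (-0.99) and against the DMSO libraries (-0.95), and that of PECAM1 with a pseudocount of 4 CPM (-0.37). COL1A2 was at 4.38 and 5.16 CPM in parental and 202 and 218 CPM in Huh7-IR cells, and LUM, of the same fibroblast group, at 277 and 329 CPM and then 31.9 and 48.9 CPM. The defining markers THY1 (0 reads in all 4 libraries), DCN (at most 0.713 CPM), VWF, CDH5, HBB and HBA1 (at most 0.116 CPM) were below the filter. The summed markers took 0.0295% and 0.0345% of reads in parental and 0.0359% and 0.0410% in Huh7-IR libraries.

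The 2 Huh7-IR libraries did not move equally. All 41 replication and mitosis genes were higher in replicate 2 than in replicate 1 (median gap 1.07 on the log2 scale), as were 22 of 26 plasma proteins (1.14) and 26 of 29 genes of coagulation and complement (0.63). Liver transcription factors (0.45, 18 of 22) and drug metabolism enzymes (0.34, 18 of 28) were also mostly higher in replicate 2. Some liver lists did not show this gap. The median was 0.04 towards replicate 2 for apolipoproteins (11 of 17 higher in it). It was 0.05 towards replicate 1 for the urea cycle (11 of 19) and 0.48 towards replicate 1 for cholesterol synthesis (18 of 23). Over all genes 7899 were higher in replicate 1 and 6998 in replicate 2, and the median gap was 0.03. ALB at 60.6 and 261 CPM, HNF4A at 23.7 and 63.8 CPM and FGB, the fibrinogen β chain, at 3.0 and 51.7 CPM show the gap, with parental values of 693 and 712 CPM for FGB. Mesenchymal genes differed little, with a median gap of 0.20 towards replicate 1, while interferon genes were higher in replicate 1 in 23 of 34 cases (0.45). The largest gaps among called genes were those of CLDN2, FGB, FHL1 (32.1 and 1.82 CPM), GRAMD1B (1.74 and 27.0 CPM), C1orf21 (21.9 and 1.27 CPM) and CRYAB, a small heat shock protein (136 and 13.9 CPM). Of these, FHL1 was not called without Huh7-IR replicate 1 (0.34 against 2.12) or without either parental library, GRAMD1B not without replicate 2 (0.55 against 2.23) or either parental library, and the log2 fold changes of C1orf21 and CRYAB were 1.03 against 2.70 and 3.01 against 4.60 without replicate 1.

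**Figure D3:**
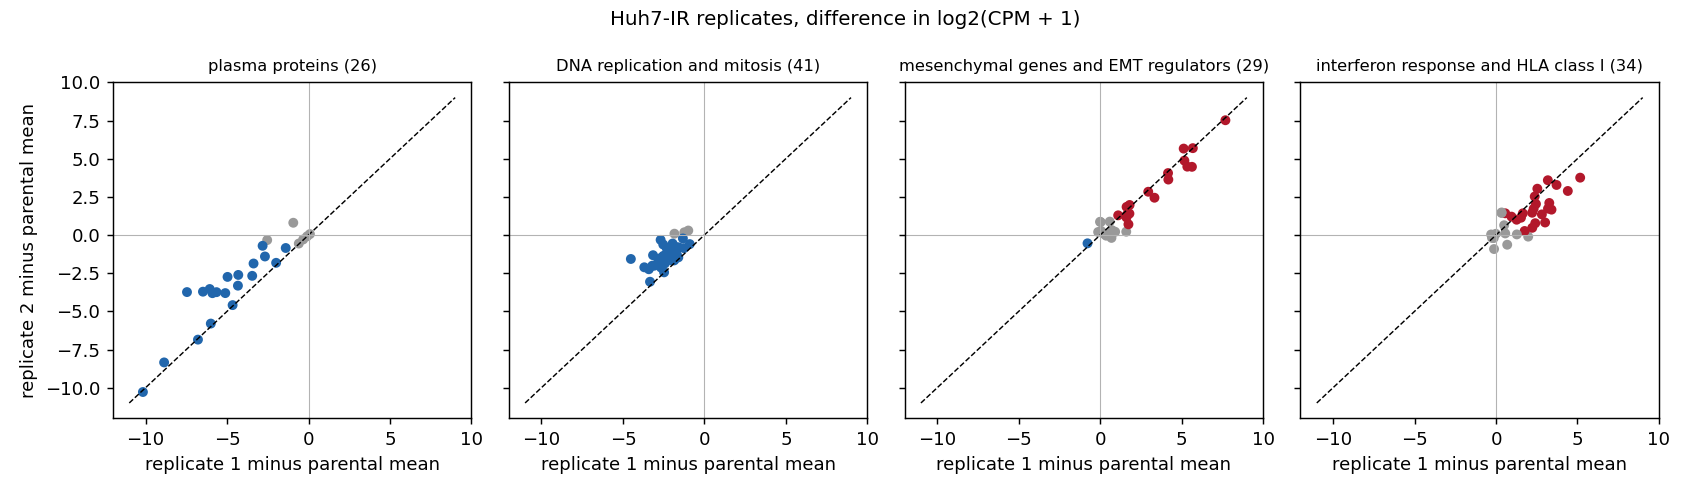
Change of each tested member of 4 lists in Huh7-IR replicate 1 (x axis) and replicate 2 (y axis), each as the difference in log2(CPM + 1) from the mean of the parental libraries (red: called higher, blue: called lower, grey: not called, dashed: equal change). All 41 replication and mitosis genes lie above the dashed line, where replicate 2 is closer to parental cells, and the mesenchymal genes lie along it.

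The regimen was compared directly, without the shared parental libraries, by testing Huh7-IR against Huh7-CR. Here 2051 genes (13.7%) were called, 1236 higher (8.23%) and 815 lower (5.43%) in Huh7-IR, and the count fell to 879 without Huh7-CR replicate 1 and to 479 without Huh7-CR replicate 2, and was 2878 without Huh7-IR replicate 2. With TMM factors 911 were higher and 1036 lower, so that the split changed sides. The genes most above Huh7-CR were CRYAB (1.72 and 3.09 CPM in Huh7-CR), the formin FHOD3 (83.2 and 25.1 CPM in Huh7-IR, 3.11 and 2.45 CPM in Huh7-CR), UBE2QL1 (20.7 and 6.41 CPM against 0.108 and 0.0524 CPM) and SLFN5 (94.2 and 76.1 CPM against 13.6 and 4.35 CPM). Those most below it were APOB (64.8 and 207 CPM in Huh7-CR), DUOX2, an oxidase that makes hydrogen peroxide (2.2 and 7.62 CPM against 51.5 and 149 CPM), the zinc finger gene ZXDB (0.514 and 0.257 CPM against 20 and 17.3 CPM) and ALB (1147 and 2305 CPM in Huh7-CR). ALB thus differed between the regimens by -3.68 (SE 0.61, limma adjusted p = 0.0032), and ITGA3, at 91.8 ± 13.4 CPM (SD, n = 2) in Huh7-CR, by 2.83 (SE 0.32). AXL did not pass the test between the regimens, with 208 and 139 CPM in Huh7-CR and a difference of 0.24 (SE 0.37).

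The line was compared by testing the change in Huh7-IR against the change in Hep3B-IR, which have no library in common. The difference was called for 5448 genes (36.3%), with 3234 (21.5%) more positive and 2214 (14.7%) more negative in Huh7. Of the genes changed by at least 2 in Huh7-IR, 350 of 877 rises and 209 of 492 falls were also called that way in Hep3B-IR, in which 15.7% of all genes were called higher and 11.4% lower. The most positive differences were those of MRAS, a RAS relative (3.54 in Huh7-IR and -4.53 in Hep3B-IR), EVA1A (4.33 and -3.42), the metalloprotease ADAM19 (3.73 and -3.76) and CDC42EP3 (7.08 and -0.10). The first 3 were already expressed in Hep3B parental cells and fell there, MRAS from 158 and 119 CPM to 6.64 and 3.65 CPM. The most negative were COL14A1 (-6.09 and 4.29), CYP2B6, a drug-metabolizing enzyme (-1.65 and 7.33), AFP (-10.22 and -1.74) and AMBP (-8.60 and -1.15). CYP2B6 rose in Hep3B-IR from 0.7 and 1.51 CPM to 271 and 407 CPM, while Huh7 held 2.05 and 2.38 CPM in parental and 0.0497 and 0 CPM in Huh7-IR libraries. NTS fell in both lines, by 7.17 in Huh7-IR and 6.75 in Hep3B-IR, and the difference did not pass the test (-0.42, SE 0.56).

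**Figure D4:**
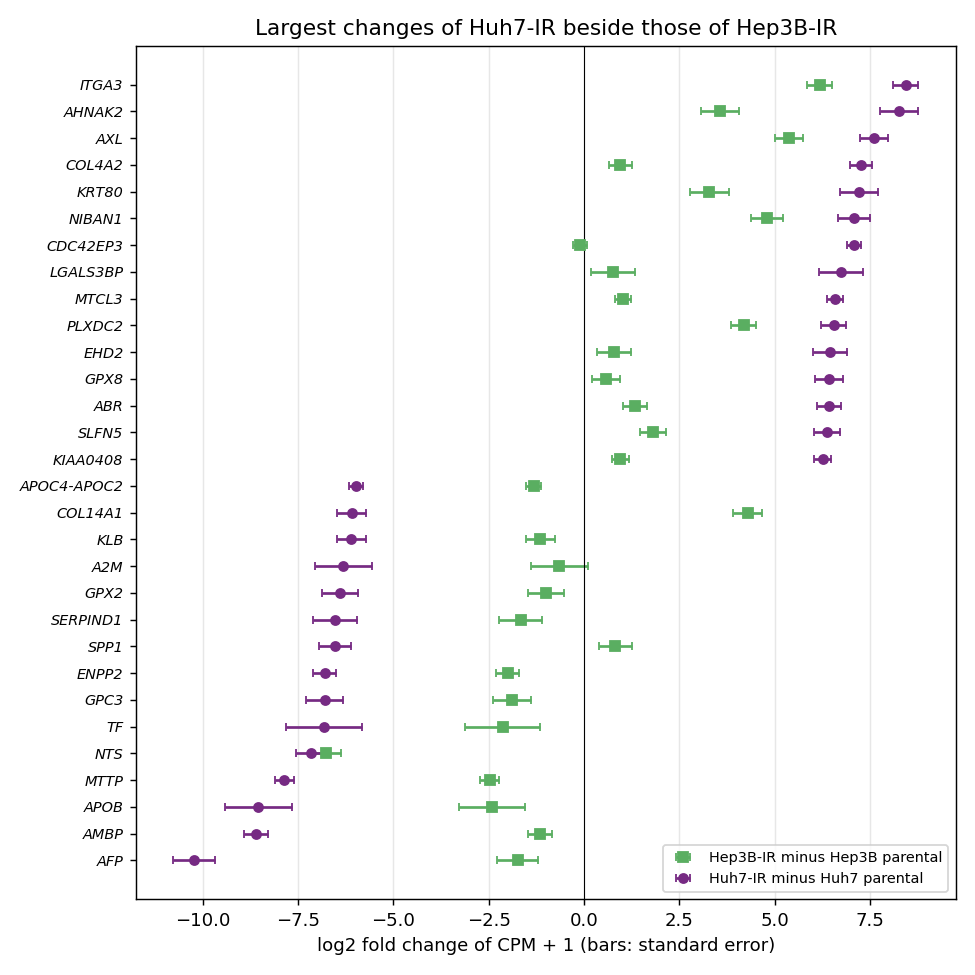
Log2 fold change of CPM + 1 against the parental cells of the same line (x axis, bars: standard error) for the 15 largest rises and 15 largest falls of Huh7-IR, in Huh7-IR (purple circles) and Hep3B-IR (green squares). NTS (-7.17 and -6.75) is the gene whose symbols touch. COL14A1 (-6.09 and 4.29), SPP1 (-6.53 and 0.82) and CDC42EP3 (7.08 and -0.10) have their symbols on opposite sides of 0.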

How the data were processed

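Poly-A+ RNA of 16 libraries was sequenced, and samples were grouped by their titles. The authors mapped reads to hg19 with RNA-STAR, kept unique hits, counted them over RefSeq mRNAs with QuasR and deposited CPM for 26258 genes, of which 26111 were matched to a symbol. CPM divide by the library total and so shift with a few abundant genes. The methods state biological triplicates, and 2 libraries a group were analysed here. 100% of the values were whole reads within 0.05 reads. Log2(CPM + 1) of 15019 genes was fitted with limma 3.58.1 (R 4.3.3, mean-variance trend) over all 8 groups. edgeR 4.0.16 on the recovered reads called 7680 genes and DESeq2 1.42.0 7846. In data simulated on these libraries for Huh7-IR against parental over 15019 genes, 87 of 96 genes changed by 1 on the log2 scale and 104 of 104 changed by 2 were called, with 5 of 14819 others. The simulation gave all libraries the same dispersion and all groups the same means, and changed only well expressed genes. The wider gap between the real Huh7-IR libraries (SD 0.566 against 0.289 for parental), the large share of called genes and genes near the floor were not simulated. These counts therefore describe the simulated setting only.

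The members and lists were chosen with earlier results of these data known, and p-values were adjusted over all genes. Named genes were the 15 largest rises and falls, up to 3 per list and direction with defining markers, the 6 largest replicate gaps, gains and losses in CPM, the 4 largest differences from Hep3B-IR and Huh7-CR in each direction, and the 5 highest genes at the floor in 1 group. Some of these genes are not reported here. Coordinates are from GENCODE on GRCh37.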

Additional observations from a re-analysis of the deposited data

Results flagged for a closer look

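The 15 largest rises and 15 largest falls of Huh7-IR were compared with the change of the same genes in Hep3B-IR, and for 29 of the 30 the difference passed the test (limma interaction contrast, adjusted p below 0.05), the exception being NTS. The genes were chosen for the size of their change in Huh7, so this count is a description, and 36.3% of all genes passed the same test. The difference in log2 fold change, Huh7 minus Hep3B, was as follows for the rises: ITGA3 (2.26), AHNAK2 (4.69), AXL (2.23), COL4A2 (6.30), KRT80 (3.92), NIBAN1 (2.28), CDC42EP3 (7.18), LGALS3BP (5.99), MTCL3 (5.55), PLXDC2 (2.37), EHD2 (5.67), GPX8 (5.85), ABR (5.07), SLFN5 (4.54) and KIAA0408 (5.30). For the falls it was as follows: AFP (-8.49), AMBP (-7.45), APOB (-6.13), MTTP (-5.38), TF (-4.68), GPC3 (-4.91), ENPP2 (-4.79), SPP1 (-7.35), SERPIND1 (-4.86), GPX2 (-5.40), A2M (-5.66), KLB (-4.96), COL14A1 (-10.38) and APOC4-APOC2 (-4.66). COL14A1 was called in opposite directions in the 2 lines, and the other 28 were not.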

How the results depend on the processing

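The counts of called genes stayed within 1.5 times of the values above under nearly every alternative run. The exceptions were a fold threshold of 1 on the log2 scale and Huh7-IR against Huh7-CR without 1 of the Huh7-CR libraries. A fold threshold of 1 on the log2 scale left 4536 genes called and 4534 called and separated. Without one library of a comparison at a time, the count of called genes was between 6305 and 7498, with the same range for those also separated, that of the difference from Hep3B-IR between 4059 and 6001, and that of Huh7-IR against Huh7-CR between 479 and 2878 (479 without Huh7-CR replicate 2), where the cause was not tested. The labels name no shared batch behind the replicate numbers, and the deviations of same-numbered Huh7-IR and parental libraries had a correlation of -0.12. With a replicate block 7350 genes were called (7344 separated), 5561 for the difference from Hep3B-IR and 2076 against Huh7-CR, and with the block and a GC correction 7095. With the numbers of the Huh7-IR libraries crossed, a pairing added after the correlation of -0.12 was seen, 7326 were called. Of the 209 named genes 203 were called, and 166 of them were called under each of the 21 alternatives that gave them a value. No direction was reversed among called genes. Most calls were lost with the 4 libraries fitted alone and with the DMSO libraries as reference (17 each) and without Huh7 parental replicate 2 (15). Among genes that stayed called, the log2 fold change moved by over 1.5 times against the DMSO libraries for A2M (-9.65), PKM (-0.80), BBC3 (1.70), STEAP3 (1.74), CDH2 (1.97) and VIM (2.18). It did so too for CDKN1A (2.17), MT1E (4.42), MT2A (3.47), TFR2 (-3.47), CYP2B6 (-3.29) and PECAM1 (-1.92), among others. After GC correction it moved as much for CEBPB (1.53), LCAT (0.73), SDF2L1 (-1.75), EEF2 (0.59), LTBP3 (1.19) and TKT (0.61).

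A fit without 1 library leaves a group with a lone sample, which is assumed to vary like the other groups. With 2 libraries a group, values near 3 reads rest on counting error, and fold changes of genes near the floor depend on the pseudocount. GC content was known for 97.2% of tested genes, and its Spearman correlation with the log2 fold change was 0.19, and -0.02 after correction. Its Spearman correlation with the difference between replicates was larger in the parental pair (0.53). It was -0.20 in the Huh7-IR pair and -0.51 in the Huh7 DMSO pair.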
